A study of Drosophila melanogaster with 8 samples.

Results

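Transcripts of the cytosolic ribosomal proteins were followed in whole adult females of Drosophila melanogaster in which the nuclear receptor gene Hr78 (DHR78) was mutant. The genes were chosen by name: every gene row whose FlyBase symbol begins with RpL, RpLP or RpS, leaving out the mitochondrial ribosomal proteins (mRp). The rule found 90 of the 12082 gene rows, of which 53 carry large subunit names and 37 small subunit names. The annotation lists 92 such genes, and RpL37-2 and RpS28a were not analysed here. Mutant females carried btl>DHR78, a construct that expresses DHR78 under the control of the tracheal gene breathless, together with the allele pair DHR78[1]/[3]. Control females carried btl>DHR78 alone, so the construct was shared by both genotypes and the Mutant has the receptor supplied mainly where that promoter is active. All females were 1 week old, on a diet of 8% yeast with 9% sugar. For each genotype, polyA RNA from 8 collections, each of 12 animals, was pooled by 2 into 4 libraries.

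A ribosome is built of a small subunit, which reads the messenger RNA, and a large subunit, which joins amino acids and carries a flexible stalk that recruits the elongation factors. Each subunit needs nearly all its proteins in equal number, and the genes for them are among the most highly transcribed of most cells, as in the ovary, which loads eggs with ribosomes. Fly genes for ribosomal proteins are best known from the Minute phenotype, in which loss of a single copy delays development. Several of the proteins are encoded by a pair of genes whose copies are used unequally between tissues, often with a copy that is preferred in the germline.

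Library totals ran from 22608378 to 33054191 counts in the Mutant and from 19544675 to 28106635 counts in the Control. Hr78 averaged 71.6 ± 1.71 CPM (counts scaled to a common library size) in Mutant libraries and 123 ± 4.22 CPM in Control libraries (SD, n = 4 each), with reads of the construct included. The label of whole females was met by 15 of 15 female germline markers detected in every library, with a summed level of 5060.3 to 5459 CPM in Mutant libraries and 5069 to 5373 CPM in Control libraries. Mutant replicate 2 stood apart from the other 7 libraries. It held 266 CPM of 23 male germline and male tract markers, all of which were detected there, against 42.7 to 45.6 CPM in the other Mutant libraries and 41.6 to 45.6 CPM in Control libraries, where 3 to 8 of the markers reached 3 counts. Most of the sum in the other libraries was Acp95EF, at 35.5 to 40.8 CPM there and 57.8 CPM in Mutant replicate 2. Results that rest on Mutant replicate 2 are given with and without it.

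Ribosomal protein transcripts differed little between the genotypes. Of the 86 members with enough counts to be tested, RpS12 and RpL29 rose in the Mutant and none fell, at an adjusted p of 0.05 (edgeR's quasi-likelihood test with Benjamini-Hochberg adjustment over all 10525 genes tested). This is 2.33% of the tested members, where 19.6% of all tested genes passed the same threshold, 8.46% higher and 11.1% lower. At an unadjusted p under 0.05 by edgeR there were 9 members, all of them higher. Of all 10525 tested genes, 3563 reached it, 1692 higher and 1871 lower. Leaving out single libraries gave 4 members higher without Control replicate 3, 1 without Mutant replicate 2 or Control replicate 1, 2 without Mutant replicate 4 and none without Mutant replicate 1 or 3 or Control replicate 2 or 4. With upper quartile or total count scaling, 22.5% or 20.4% of all tested genes were called, and 8 or 16 members rose and none fell. Their values covered a narrow range: the median log2 fold change, Mutant over Control, was 0.07 for the members and 0.01 for all tested genes. It was positive for 74 members and negative for 12, and ran between -0.16 for RpL3 and 0.24 for RpS12. The median standard error of a single gene's value was 0.06. The libraries of the genotypes did not overlap for 4 members (4.65%), namely RpS12, RpL29, RpS21 and RpL34a, against 25.0% of all tested genes. Among genes averaging at least 500 CPM, 1 of 78 members (1.28%) and 24.0% of 192 other genes passed the threshold. The median standard error was 0.0625 for these members and 0.0539 for these other genes, so the members' values were the less precise.

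**Figure D1:**
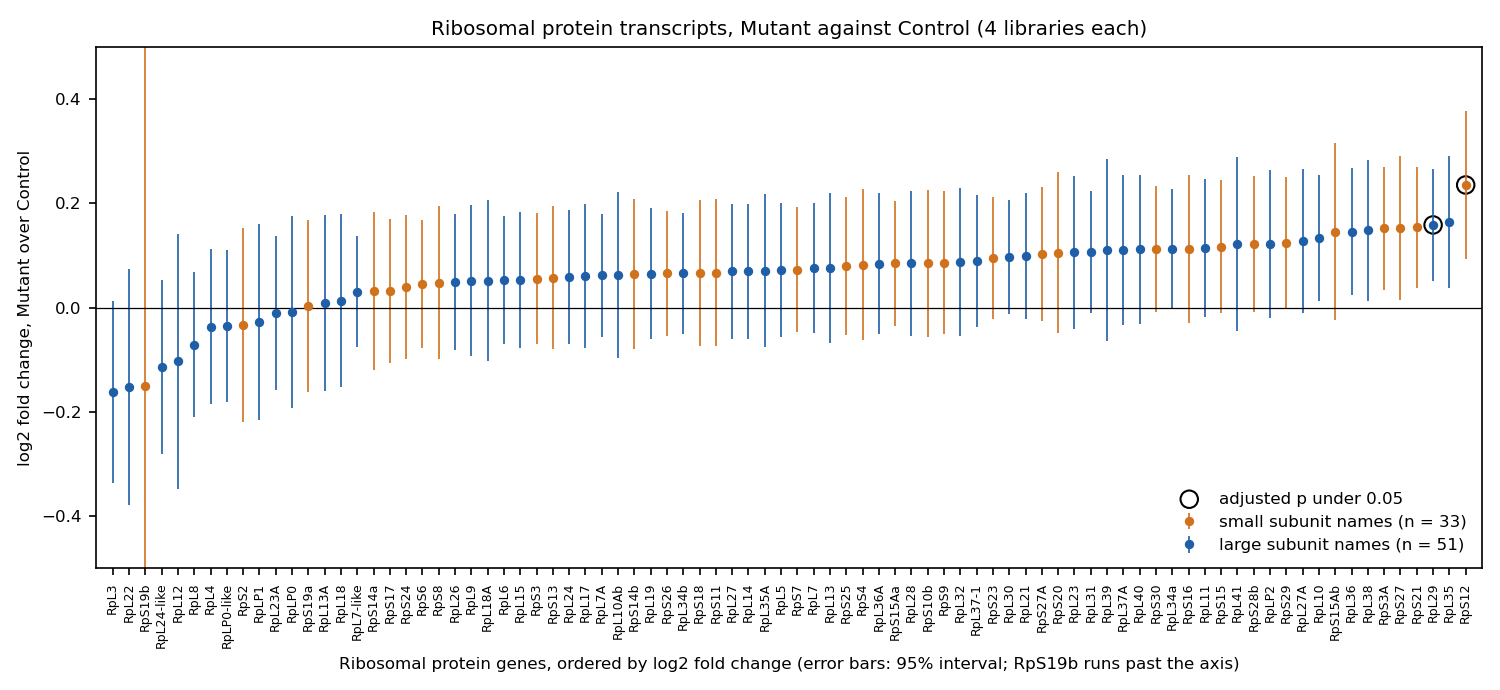
Log2 fold change, Mutant over Control, with its 95% interval for 84 of the 86 tested ribosomal protein genes, ordered from lowest to highest and coloured by subunit name (4 libraries per genotype). The points lie between -0.16 and 0.24, circles mark RpS12 and RpL29, which passed an adjusted p of 0.05, and the interval of the barely detected RpS19b runs beyond the axis.

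RpS12, a small subunit protein that flies need for Minute cells to be eliminated by their neighbours, had the highest value. It was at 1409, 1261, 1305 and 1208 CPM in Mutant libraries, against 1119, 1024, 1205 and 1055 CPM in Control libraries. All Mutant libraries lay above all Control libraries, although the lowest Mutant and the highest Control library were only a few CPM apart. RpS12 (CG11271, on arm 3L) rose by 0.24 on the log2 scale (standard error 0.06, adjusted p 0.0283 by edgeR). The call was lost without Mutant replicate 1 or 3 or Control replicate 2 or 4 (adjusted p 0.0633 to 0.0766 by edgeR), and the value was 0.12 (adjusted p 0.123 by edgeR) once a trend with transcript length was removed.

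RpL29, a small basic protein of the large subunit, was at 548, 510.5, 522 and 509 CPM in Mutant libraries and at 461, 466, 500.4 and 445 CPM in Control libraries. The genotypes were again separate, with Control replicate 3 close to the Mutant libraries. RpL29 (CG10071, on arm 2R) rose by 0.16 on the log2 scale (standard error 0.05, adjusted p 0.0418 by edgeR). Its call was lost when any library other than Control replicate 3 was left out (adjusted p 0.0601 to 0.112 by edgeR). With the trend on transcript length removed, the value of RpL29 was -0.01 with an adjusted p of 0.891 by edgeR.

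The members next in order did not pass the adjusted threshold. RpL35, a protein at the exit of the peptide tunnel, was at 1151, 1009, 1098 and 988 CPM in Mutant libraries and at 934, 924, 998 and 932 CPM in Control libraries, a log2 fold change of 0.16 (adjusted p 0.0685 by edgeR). Mutant replicate 4 lay below Control replicate 3, so the genotypes overlapped. RpS21, at 629, 576, 573 and 555 CPM in Mutant libraries and 540.4, 502, 549.9 and 505 CPM in Control libraries, had separate genotypes and a log2 fold change of 0.15 (adjusted p 0.0646 by edgeR). RpS27 (0.15) and RpS3A (0.15) had log2 fold changes of similar size with adjusted p of 0.112 and 0.0704 by edgeR. With DESeq2 as the test, 6 members rose, RpL29, RpL35, RpL36, RpS12, RpS21 and RpS3A, and none fell. That test called 22.1% of all tested genes.

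At the other end of the order stood RpL3, a large subunit protein that reaches towards the site where peptide bonds are made. It was at 3550.3, 2957, 3049.9 and 2792 CPM in Mutant libraries and at 3699, 3172, 3629 and 3320.1 CPM in Control libraries. Mutant replicate 1 lay within the Control range and the other Mutant libraries below all Control libraries. The log2 fold change of RpL3 (CG4863, on 3R) was -0.16 (standard error 0.08, adjusted p 0.176 by edgeR). RpL22, whose fly protein carries an added histone H1-like domain, showed the same arrangement at 1733, 1382, 1399 and 1214 CPM in Mutant libraries and 1744, 1476, 1629.7 and 1516 CPM in Control libraries, and its log2 fold change was -0.15 (standard error 0.10, adjusted p 0.320 by edgeR). Without Mutant replicate 1, RpL3 fell by 0.24 and RpL22 fell by 0.26 on the log2 scale, with adjusted p of 0.0365 and 0.0412 by edgeR. No member was then called higher, and 15.6% of all tested genes were called. Both genes overlap annotated noncoding RNAs, RpL3 over 412 exonic bases on the opposite strand and RpL22 over 377 on the same strand. Reads of these RNAs cannot be told apart from those of RpL3 and RpL22, since the use of strand in counting is not given in the sources used here.

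Mutant replicate 1 also stood apart for RpL12 and RpL24-like. RpL12, a protein at the base of the stalk, was at 788 CPM in Mutant replicate 1, against 1076, 1095 and 1182 CPM in the other Mutant libraries and 1066 to 1147 CPM in Control libraries. RpL24-like, whose yeast counterpart Rlp24 is an assembly factor of the large subunit, was at 185 CPM in Mutant replicate 1, against 232, 244 and 235 CPM in the other Mutant libraries and 238 to 249 CPM in Control libraries. In that library both genes were low while 83 of 85 members lay above their Control mean. The log2 fold changes were -0.10 for RpL12 and -0.11 for RpL24-like, with adjusted p of 0.546 and 0.319 by edgeR. Without Mutant replicate 1 the values were 0.01 for RpL12 and -0.03 for RpL24-like.

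The members moved together from library to library. Relative to its Control mean, the median of the 86 tested members stood at log2 values of 0.20, 0.02, 0.09 and -0.00 in Mutant replicates 1 to 4 and at 0.05, -0.07, 0.07 and -0.05 in Control replicates 1 to 4. Mutant replicate 1 was the highest library and Control replicates 2 and 4 were the lowest, with only 2 and 9 members above the Control mean. The median over all genes stayed between -0.003 and 0.011 in the same libraries. A value near 0 was set in advance there, since the scaling of library sizes centres the bulk of genes. Within each genotype these medians spanned more than the difference between the genotype means, which were 0.07 in the Mutant and 0.00 in the Control.

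**Figure D2:**
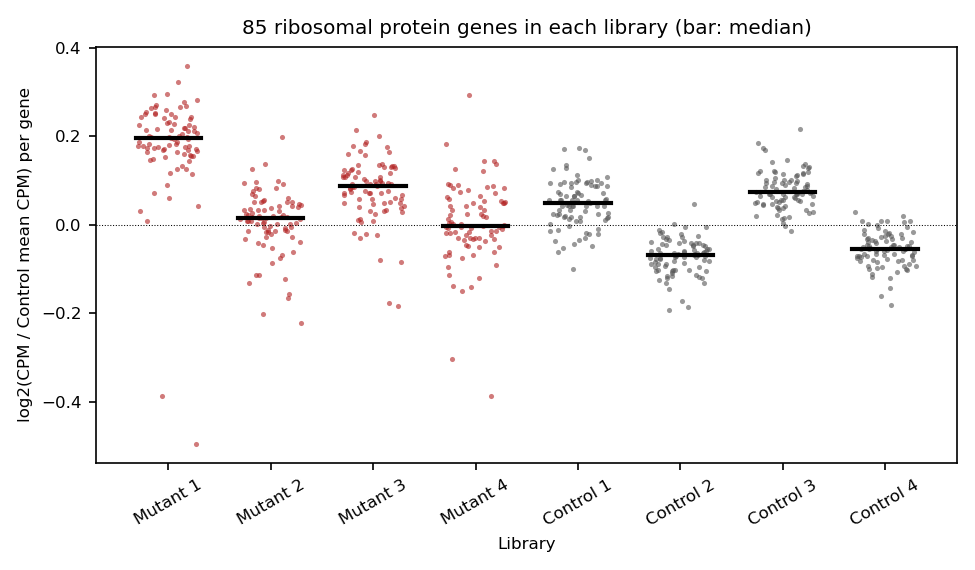
Each point is a ribosomal protein gene in a library, as log2 of its CPM over its Control mean, and the bar is the median of the 85 genes (RpS19b, at under 2 CPM, is left out). The cloud moves as a block, highest in Mutant replicate 1 at 0.20 and lowest in Control replicate 2 at -0.07, and the low points in Mutant replicate 1 are RpL12 and RpL24-like.

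Members together took 12.6%, 11.4%, 12.0% and 11.3% of all counts in Mutant replicates 1 to 4 and 11.0%, 10.7%, 11.5% and 10.6% in Control replicates 1 to 4. The genotypes overlapped, since Control replicate 3 lay above Mutant replicates 2 and 4. The means were 11.8 ± 0.569% in the Mutant and 11.0 ± 0.408% in the Control (SD, n = 4 each). Counted per base of transcript, the members made up 24.0% to 25.5% of the total in the Mutant and 22.8% to 24.4% in the Control, which takes counts per base as a measure of molecules. In whole animals, fewer cells of a type and less RNA per cell cannot be told apart.

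The ratio between the subunits differed by a few percent. Counts on small subunit members over counts on large subunit members gave ratios of 0.654, 0.654, 0.650 and 0.656 in Mutant replicates 1 to 4 and of 0.633, 0.636, 0.642 and 0.638 in Control replicates 1 to 4. All Mutant libraries were above all Control libraries, with means of 0.653 ± 0.002 and 0.637 ± 0.004 (SD, n = 4 each), a ratio of the means of 1.03. For single genes, the libraries of the genotypes were likewise separate for 25.0% of all tested genes. Per base of transcript the ratio was 0.652 to 0.659 in Mutant libraries and 0.642 to 0.650 in Control libraries. Dividing by a fixed length per gene does not remove a trend of fold change with transcript length. The part of that trend in the ratio was not tested. With RpL3 and RpL22 left out of the large subunit, it was 0.694 to 0.702 in Mutant libraries and 0.685 to 0.693 in Control libraries. The last 2 forms of the ratio were added after the data had been seen. By gene, 35 tested small subunit members had a median log2 fold change of 0.08, with 33 positive, and 51 tested large subunit members a median of 0.07, with 41 positive.

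When each library was expressed relative to its median member, the shift that the members share was removed and their spread narrowed. The median standard deviation over the 8 libraries was 0.10 log2 before and 0.05 after. On that scale the genotypes did not overlap for 7 of 86 members (8.14%), against 19.8% of all genes. RpS12 stood at 0.00, 0.03, 0.06 and 0.02 in Mutant replicates 1 to 4 and at -0.19, -0.14, -0.04 and -0.17 in Control replicates 1 to 4, a difference of 0.16. RpS21 was the other member on the high side, with a difference of 0.08. The remaining 5 were on the low side in the Mutant and all belong to the large subunit: RpL3 (-0.24), RpL22 (-0.24), RpL8 (-0.15), RpL4 (-0.11) and RpL23A (-0.09). All 5 are also among the 13 members longer than 1000 bases, where the members' median length is 708.5 bases. Their lengths are 1495.5 (RpL3), 1100 (RpL22), 1085.5 (RpL8), 1400 (RpL4) and 1168.5 bases (RpL23A). The fold changes of members fell with length, and the part of length in these 5 differences was not tested. For RpL3 the relative log2 levels were 1.33, 1.26, 1.28 and 1.23 in Mutant replicates 1 to 4 and 1.54, 1.49, 1.55 and 1.49 in Control replicates 1 to 4, so that Mutant replicate 1 no longer lay among the Controls. RpL4 lines the tunnel through which the new peptide leaves, RpL23A sits at the exit of that tunnel and RpL8 lies near the catalytic centre. Their own log2 fold changes were -0.04 for RpL4, -0.01 for RpL23A and -0.07 for RpL8, with adjusted p of 0.745, 0.933 and 0.460 by edgeR. RpL23A shares 542 annotated exonic bases with CG7974 on the opposite strand and Uhg7 on the same strand, whose reads cannot be told apart from its own.

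Transcript length moved with the fold changes. Across the 86 members, the log2 fold change and the median transcript length had a Spearman correlation of -0.48 and a Pearson correlation of -0.45, as a description across genes, which share the same libraries. Outside the members, genes up to 500 bases had a median log2 fold change of 0.16, those of 500 to 1000 bases 0.10, those of 1000 to 2000 bases 0.05 and those over 4000 bases -0.14. The members' own medians in the first 3 of these classes were 0.12, 0.08 and 0.05, for 5, 68 and 13 genes. Members are short, with a median length of 708.5 bases against 1800 for all rows. With an offset that removes the length trend in each library, the median log2 fold change of the members became -0.02. No member was then called in either direction by edgeR, where 14.4% of all tested genes were called.

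**Figure D3:**
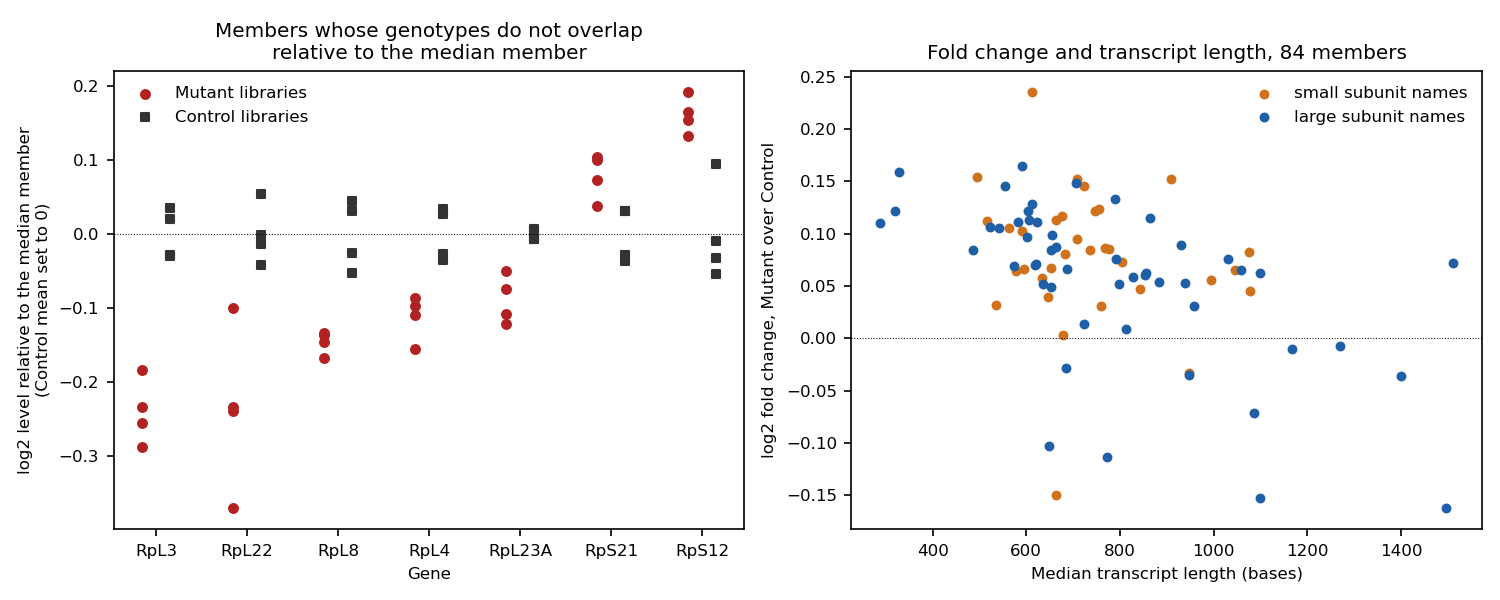
Left: log2 level relative to the median member, with the Control mean set to 0, in each Mutant and Control library for the 7 genes whose genotypes do not overlap on this scale, from RpL3 (-0.24) to RpS12 (0.16). Right: log2 fold change, Mutant over Control, against median transcript length in bases for 84 of the 86 tested genes. Short genes have values mostly above 0. The longest genes lie on both sides of 0, with RpL3 at -0.16 and RpL5 at 0.07.

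Levels per kilobase of transcript were alike for most members. In the mean of all libraries, 74 of 90 genes lay between 1000 and 4000 CPM per kb, 1 above and 15 below, and 12 of those 15 belong to 11 paralog pairs that were examined. The median was 1820.3 CPM per kb in the Mutant and 1731 CPM per kb in the Control. For large subunit members it was 1799 CPM per kb in the Mutant and 1731 CPM per kb in the Control, and for small subunit members 1872 CPM per kb in the Mutant and 1732 CPM per kb in the Control. The highest gene was RpL41, the smallest protein of the ribosome, at 7166 ± 518 CPM per kb in the Mutant and 6587 ± 634 CPM per kb in the Control (SD, n = 4 each). Its lowest library, at 5946 CPM per kb, lay above the highest library of RpS3A (3960 CPM per kb), which came next at 3805 ± 123 in the Mutant and 3423 ± 193 in the Control. RpL27A, RpL39 and RpL10 followed at Mutant means of 3130 ± 241, 3065 ± 186 and 3086 ± 121 CPM per kb and Control means of 2864 ± 140.0, 2838 ± 329 and 2814 ± 163 CPM per kb, and within each genotype the libraries of these genes overlapped. The order depends on the length used, since with coding length RpL41 stayed first and RpS3A came 10th, RpL10 14th and RpL39 came 3rd.

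**Figure D4:**
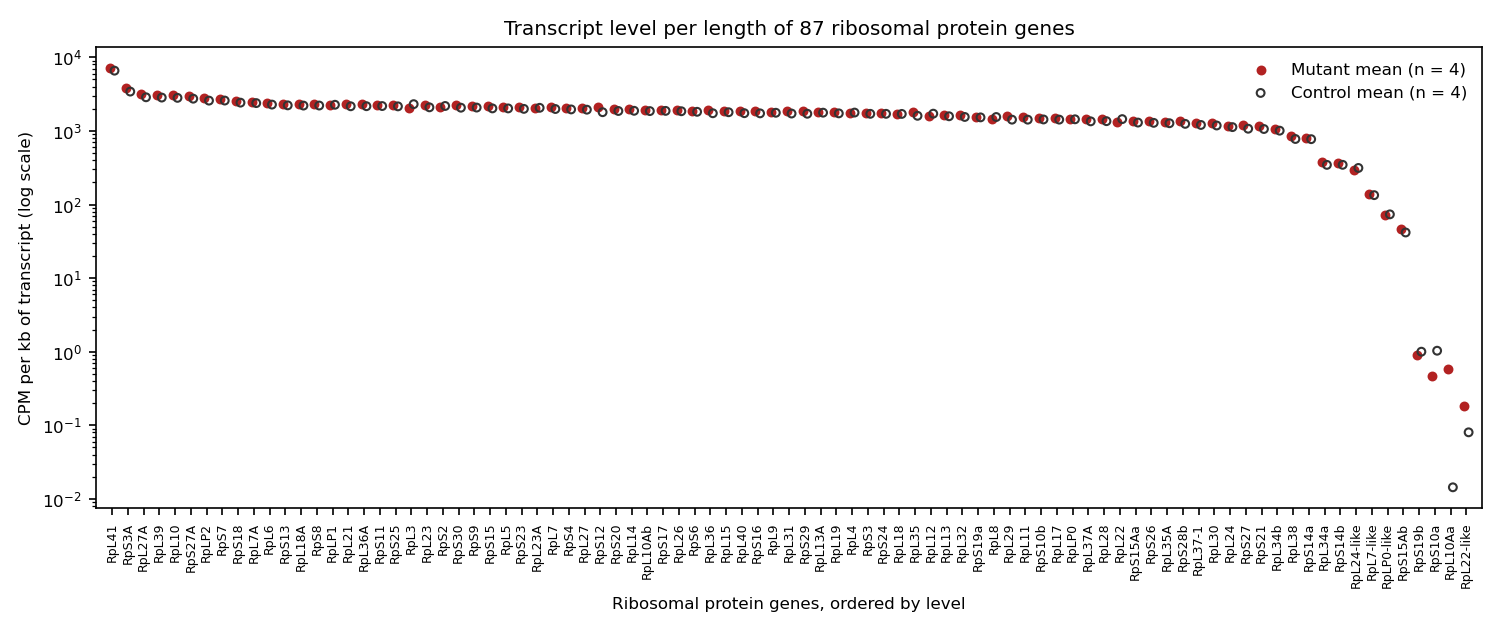
Mean CPM per kb of transcript on a log scale for 87 ribosomal protein genes, ordered by level, with filled points for the Mutant and open points for the Control (n = 4 each). RpS28-like, at 0 in every Control library, cannot be drawn on this axis, and most genes form a plateau between 1000 and 4000 CPM per kb, above a tail made up mostly of paralog copies.

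Genes of known roles within the ribosome lay on that plateau and none of those named in this paragraph passed the test. The 3 stalk genes were at 1431 ± 119 (RpLP0), 2222 ± 257 (RpLP1) and 2808 ± 208 (RpLP2) CPM per kb in the Mutant, against 1439 ± 156, 2267 ± 187 and 2581 ± 159 CPM per kb in the Control, with log2 fold changes of -0.01, -0.03 and 0.12. In the stalk, pairs of P1 and P2 proteins sit on a single P0. RpL5 and RpL11, which enter the large subunit together with the 5S RNA, had log2 fold changes of 0.07 and 0.11. RpS6, the small subunit protein that S6 kinase phosphorylates, averaged 2022 ± 107 CPM in Mutant libraries and 1959 ± 99.1 CPM in Control libraries, a log2 fold change of 0.05. RpS27A and RpL40, which are made as fusions to ubiquitin, had log2 fold changes of 0.10 and 0.11.

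Shares within paralog pairs overlapped between the genotypes. In 11 pairs with both copies in the table, the share of the less abundant copy, counted per base of transcript, gave no pair in which all Mutant libraries lay on one side of all Control libraries, and none of the 18 tested genes of these pairs was called. In the RpS14 pair the b copy held 31.4 ± 0.385% in the Mutant and 31.0 ± 0.798% in the Control, per base of transcript (SD, n = 4 each). The 2 copies lie next to each other on the X and encode the same protein, so how their reads were split in counting is uncertain. In the RpL34 pair the a copy held 26.1 ± 0.685% in the Mutant and 25.6 ± 1.15% in the Control. RpL34a had separate genotypes, at 249, 224, 218 and 214 CPM in Mutant libraries and 203, 208, 214 and 214 CPM in Control libraries, but the last Mutant and the highest Control libraries differed by less than 1 CPM and its adjusted p was 0.153 by edgeR with a log2 fold change of 0.11. RpS15Ab held 3.25 ± 0.260% of its pair in the Mutant and 3.11 ± 0.129% in the Control.

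**Figure D5:**
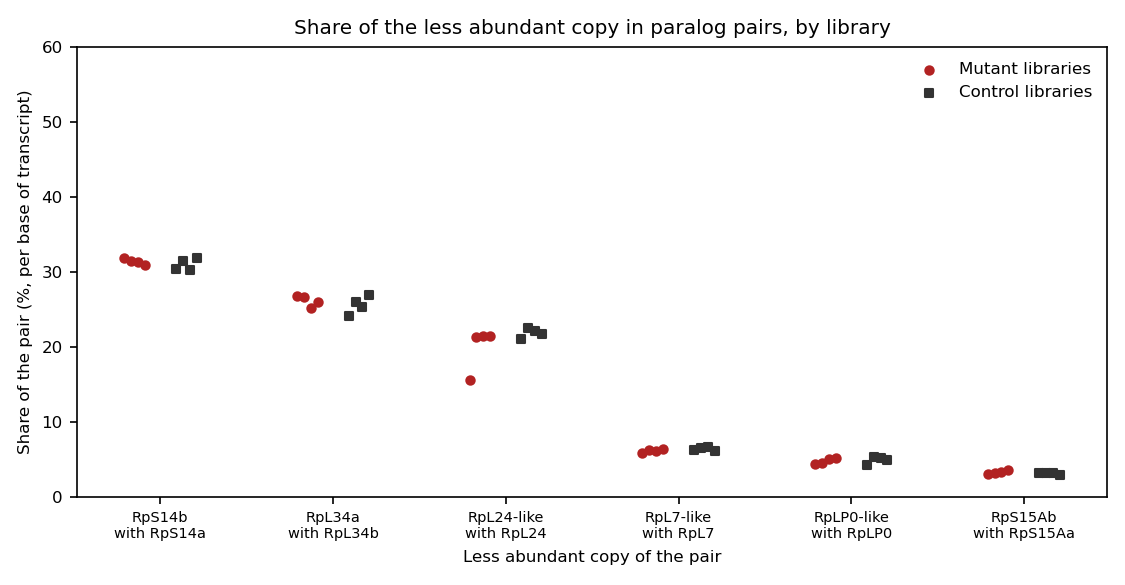
Share of the less abundant copy in a paralog pair, in percent per base of transcript, in each of the 4 Mutant and 4 Control libraries, for the 6 pairs in which that copy exceeds 1%. Shares run from about 31% for RpS14b to about 3% for RpS15Ab, Mutant and Control points overlap in each pair, and the low point of RpL24-like at 15.5% is Mutant replicate 1.

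RpL24-like, RpL7-like and RpLP0-like encode homologs of the yeast factors Rlp24, Rlp7 and Mrt4, which act in assembly of the large subunit. RpL24-like reached 15.5%, 21.3%, 21.4% and 21.5% of the sum with RpL24 in Mutant replicates 1 to 4 and 21.1%, 22.5%, 22.1% and 21.6% in Control replicates 1 to 4. RpL7-like held 6.16 ± 0.231% in the Mutant and 6.33 ± 0.250% in the Control of its sum with RpL7, and RpLP0-like 4.79 ± 0.399% in the Mutant and 4.89 ± 0.504% in the Control of its sum with RpLP0. RpL7-like shares 1771 annotated exonic bases with CG34164 on the same strand, so reads of these genes cannot be told apart.

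Copies near the limit of detection were RpS19b, RpS10a, RpL22-like, RpL10Aa and RpS28-like. RpS19b, a germline copy, averaged 0.594 ± 0.291 CPM in Mutant libraries and 0.663 ± 0.272 CPM in Control libraries. It made up under 0.11% of its pair in each library. Its highest Mutant library was replicate 2 at 1.03 CPM, against 0.488, 0.474 and 0.389 CPM in Mutant replicates 1, 3 and 4. The other 4 did not pass the filter on low counts. RpL10Aa had 0, 50, 0 and 0 counts in Mutant libraries and 0, 1, 0 and 0 in Control libraries. RpL22-like, a paralog known from the testis, had 4, 18, 1 and 2 counts in Mutant libraries and 1, 0, 1 and 6 in Control libraries. RpS28-like had 0, 11, 2 and 0 counts in Mutant libraries and none in Control libraries, where 3 counts equal 0.112 to 0.155 CPM. The high value of each of these 3 genes came from Mutant replicate 2, the library with 266 CPM of male markers, and the part of those transcripts in it was not tested. Without that library the Mutant counts were 0, 0 and 0 for RpL10Aa, 0, 2 and 0 for RpS28-like and 4, 1 and 2 for RpL22-like. RpS10a had 10, 13, 8 and 1 counts in Mutant libraries and 29, 6, 17 and 6 in Control libraries, with overlapping genotypes.

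Many of these genes carry other RNAs in their introns. By the annotation, 28 of the 90 members (31.1%) hold at least 1 small nucleolar RNA gene, 74 in all, against 0.467% of 11789 other protein-coding rows. RpS7 hosts 7, and RpS12 and RpL3 host 2 and 4. The 28 host genes had a median log2 fold change of 0.07 with 1 member called higher, and the 58 tested members without such RNAs a median of 0.08 with 1 called higher. By chromosome arm, the members' medians ran between 0.06 on 3L and 0.11 on 2R, leaving aside chromosome 4 with RpS3A as its member.

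Other genes of translation were read against the 8.46% of all tested genes that rose and the 11.1% that fell. Of 31 tested genes for ribosome biogenesis and RNA polymerase I, 10 fell and none rose (32.3% called), with a median log2 fold change of -0.09. Polr1E, a subunit of RNA polymerase I, which makes the large ribosomal RNAs, was at 64.6, 69.2, 64.7 and 60.7 CPM in Mutant libraries and 78.9, 93.9, 94.6 and 93.9 CPM in Control libraries, and fell by 0.48 on the log2 scale (standard error 0.07, adjusted p 0.000891 by edgeR). All Mutant libraries lay below all Control libraries. Polr1A, the largest subunit of that enzyme, fell by 0.29, Nopp140, a nucleolar phosphoprotein, fell by 0.21, and Tsr1, which in yeast matures the small subunit, fell by 0.21. The number that fell was 4 without Mutant replicate 2, 3 or 4 or Control replicate 2 or 3, and 5 without Control replicate 1. These fits called 13.99% to 16.17% of all tested genes. It was 10 without Mutant replicate 1 and 8 without Control replicate 4, where 15.61% and 14.72% of all tested genes were called. Upper quartile and total count scaling each gave 4, where 22.53% and 20.42% of all tested genes were called. Without the filter on low counts 6 fell, where 14.96% of all genes were called. None of the 31 rose in any of these fits. Wherever only 4 of the 31 fell, the list's called share was below that of all tested genes.

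Among 35 tested initiation factors 1 rose and 3 fell (11.4% called), with a median log2 fold change of -0.03. eIF5B, the factor that joins the subunits, fell by 0.36, eIF4H1, a helper of the RNA helicase eIF4A, fell by 0.26, eIF3a, the scaffold of the factor that binds the small subunit, fell by 0.16, and eIF3k, a smaller part of the same factor, rose by 0.14. Without Mutant replicate 3 or Control replicate 2 or 4 the rise of an initiation factor was no longer called. With the length trend removed none rose and 1 fell, and upper quartile scaling gave 3 that rose and DESeq2 5 that fell. Of 11 elongation and termination factors, eEF1alpha2 rose by 0.25 on the log2 scale (9.09% called), and the others did not pass. Of 20 tested regulators of ribosomal protein synthesis and growth, 1 rose and 4 fell (25.0% called, close to the 19.6% of all tested genes). Among these, Irbp18, the partner of the Minute response factor Xrp1, rose by 0.29. The largest fall of the list was that of raptor, by 0.39 (adjusted p 0.0306 by edgeR). A component of TOR complex 2, rictor, fell by 0.22, and S6k, the kinase of RpS6, fell by 0.17. A transcription factor restrained by insulin signalling, foxo, fell by 0.16. With the length trend removed, none of these 20 regulators was called, and the number that fell was 2 without Control replicate 2 or 3 or with upper quartile scaling and 1 with total count scaling. The rise of Irbp18 was not called without Control replicate 1 or 4 or any single Mutant library.

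Markers of tissues rich in ribosomes gave the following values beside these results. Of 15 tested female germline markers, bam, which drives germline cells out of the stem cell state, rose by 0.47 and gus, which binds the germline helicase Vas, rose by 0.20, and none fell (13.3% called). Neither was called with the length trend removed. The call of gus was lost without Mutant replicate 3 or 4 or Control replicate 3, and that of bam without any single library except Control replicate 4. The 15 genes of chorion and vitelline membrane summed to 8661 to 14269.8 CPM in Mutant libraries and 8454 to 16086 CPM in Control libraries, and the 3 yolk proteins to 22743 to 28374 CPM in Mutant libraries and 22063 to 34564 CPM in Control libraries. None of these 18 passed the test. The part of tissue composition in the levels of ribosomal protein transcripts was not tested.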

How the data were processed

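Transcripts of whole females were measured by RNA sequencing in 4 Mutant and 4 Control libraries, grouped by their titles. The authors deposited raw read counts per gene, whole numbers whose totals differ between libraries. In the submitters' processing notes the build is dm3 and DESeq is named. The aligner, counter, annotation and strand setting were not given in the sources used here. A row that names no gene (0.0154% to 0.0176% of counts) was left out, and 0 columns stayed unmapped. Of the other rows, 11482 were matched to symbols by a current locus tag and 456 by an older synonym in the RefSeq gene table of Release 6, 84 matched several genes and 60 none. Because the builds differ, no coordinates are given. Lengths are medians over a gene's annotated transcripts (BDGP6), available for 98.7% of rows.

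Counts were filtered with filterByExpr (minimum count 10), scaled with TMM and tested over 10525 genes with the robust quasi-likelihood test of edgeR 4.0.16 in R 4.3.3, two-sided, without covariates, with Benjamini-Hochberg adjustment at 0.05. Standard errors were obtained as the size of the log2 fold change over the root of the F value. DESeq2 1.42.0 and limma 3.58.1 gave alternatives, and figures were drawn with matplotlib 3.10.9. The code was tested on simulated data. CPM uses the TMM-scaled library size. Intervals and the floor of 3 counts cover counting or replicate error only. Each library pools collections, libraries of a genotype differed by more than sampling noise (chi-square per degree of freedom 10.8 to 37.4), and p-values measure the spread between these pools. The members, lists and pairs were chosen with earlier results of these data known. Named genes are those past the threshold, the 5 highest and lowest in fold change and in level, the paralog pairs, and up to 4 called genes of each other list. RpL8, RpL4, RpL23A, RpS6, RpL5, RpL11, RpL40, RpLP1, RpLP2, RpL36, RpS27A, RpS7 and raptor were added after their values were seen. RpS14b and other copies may share reads with their partner. Another pair of copies entered the fits and totals and is not reported here.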

Additional observations from a re-analysis of the deposited data

Results flagged for a closer look

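Of 175 sets of 4 libraries examined, 10 (5.71%) held a library far from the others, where chance gives about 1 in 20. In Mutant replicate 1, RpL19 was at 2098 CPM and RpS2 at 2329.7 CPM, each above the other Mutant libraries. In Mutant replicate 2, RpL10Aa was at 1.83 CPM, RpL22-like at 0.660 CPM and RpS19b at 1.03 CPM, and this is the library with 266 CPM of male markers. Among the Controls, replicate 3 was high for RpL35 at 998 CPM, RpL36 at 1025 CPM and RpLP0-like at 78.4 CPM. RpL10Aa was at 0.0451 CPM in Control replicate 2, which is 1 count, and RpL22-like at 0.310 CPM in Control replicate 4. The causes of these values were not tested.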

How the results depend on the processing

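Members called higher numbered 8 with upper quartile scaling, 16 with total count scaling, 1 without the low-count filter, 6 with DESeq2 and 0 to 4 when single libraries were left out; 0 to 2 were called lower in those. Over all genes, deviations of same-numbered libraries correlated at 0.21, -0.05, -0.10 and 0.04, within the -0.20 to 0.23 of other Mutant and Control pairs. The members' medians, by contrast, were higher in replicates 1 and 3 than in 2 and 4 in both genotypes. What the replicate numbers mark is not given in the sources used here. With a replicate block, 10 members were higher and 1 (RpL3) lower, where 22.9% of all tested genes were called. With the length offset, 0 were higher and the members' median was -0.024, where 14.4% of all tested genes were called. With that offset and the block, 0 were higher, 4 lower (RpL22, RpL3, RpL8, RpLP1) and the median -0.023. That fit called 16.3% of all tested genes. RpL12, RpLP0, RpLP0-like, RpS14a, RpS19a and RpS19b changed sign, uncalled, without a library, with ranges of -0.17 to 0.0078, -0.065 to 0.050, -0.066 to 0.026, -0.020 to 0.075, -0.041 to 0.063 and -0.54 to 0.037. Uncalled signs also turned with the length offset, without and with the block: RpL29 (-0.0088, -0.0087), RpL39 (-0.063, -0.065), RpL41 (-0.047, -0.047), RpL10Ab (-0.026, -0.023), RpL24 (-0.034, -0.034), RpL34a (-0.0037, -0.0038), RpL34b (-0.039, -0.038), RpL7-like (-0.049, -0.048), RpS10b (-0.012, -0.013), RpS14a (-0.067, -0.065), RpS14b (-0.057, -0.057), RpS15Aa (-0.014, -0.013) and RpS19a (-0.10, -0.099). RpLP0 was 0.039 with upper quartile and 0.038 with total count scaling, RpLP0-like 0.011 and 0.0086, and RpS19a -0.00036 with RLE and -0.00037 with DESeq2. Over all genes, 1499 were higher with upper quartile scaling (890 with TMM) and 774 lower with the length offset (1173). The difference in the members' share of a library was 1.33 percentage points per base of transcript and 0.827 in counts. Causes were not tested. Of 1135 repeats, 980 kept direction and side of the threshold or, for counts, stayed within 1.5 times and, for values with no test, within 1 SD.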
